A study of Mus musculus with 12 samples.

Results

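The nuclear-encoded genes of the mitochondrial respiratory chain were followed, complex by complex, in mouse oligodendrocyte progenitor cells (OPCs) exposed to 3 quaternary ammonium compounds. Members were taken by symbol: Nduf genes for complex I, Sdha to Sdhd for complex II, Uqcr genes for complex III, Cox genes whose symbol continues with a digit for complex IV, and Atp5 genes for complex V. Symbols ending in -ps were left out, and a gene had to reach 1 TPM, a level scaled to transcript length and to the total of its library, in at least 3 of the 12 libraries. Of 35385 gene symbols, 116 carried these names, 107 of them without -ps, and 98 of those passed. Complex I had 46 members, complex II had 4, complex III had 8, complex IV had 23 and complex V had 17. By role, 79 members were subunits, 18 were assembly factors, 8 for complex I and 10 for complex IV, and Ndufb4c has no assigned role. Ndufb4c is counted with the subunits below, which makes 80. The name rule also takes in Ndufa4, which later work placed in complex IV. The other 9 of the 107 symbols did not pass: Cox4i2, Cox8c and Ndufa11b were listed at 0 in all 12 libraries, and Cox6c2, Cox7b2, Cox8b, Cox20b, Ndufa4l2 and Ndufs6b peaked at no more than 2.50 TPM. Just inside the filter lay Cox11 and Cox7a1, at means of 0.684 and 1.02 TPM in vehicle cells. Among the excluded -ps symbols, Ndufb1-ps, the symbol under which this annotation carries a complex I subunit, stood at 55.3 to 79.6 TPM.

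The cells were derived from mouse pluripotent stem cells, plated in a medium permissive for differentiation, given 1 h to attach, and then exposed for 4 h. The labels write Tox1 for cetylpyridinium chloride (CPC), which joins a pyridinium ring to a hexadecyl chain. Tox2 is C12-C14-alkyl(ethylbenzyl)dimethylammonium chloride (AEBDAC), which carries an ethylbenzyl ring, and Tox3 is methyltrioctylammonium chloride (MTOAC), which has octyl chains and no aromatic ring. The vehicle cells received DMSO. Each group had 3 libraries of poly(A) RNA. The concentration was the IC75 of the compound concerned, which gives 75% inhibition. The sources used here do not give these concentrations, so doses cannot be matched across compounds.

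The respiratory chain sits in the inner mitochondrial membrane. Complexes I and II pass electrons from NADH and succinate to ubiquinone, complex III passes them on to cytochrome c, and complex IV hands them to oxygen. Complexes I, III and IV pump protons as they do so, and complex V, the ATP synthase, lets the protons back to make ATP. The mitochondrial genome encodes a few subunits of complexes I, III, IV and V. The nucleus encodes all of complex II, the remaining subunits, and the assembly factors, which include those that insert haem, copper and iron-sulphur clusters without staying in the finished enzyme.

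In none of the 6 comparisons did a member pass an adjusted p under 0.05 (limma on log2(TPM + 1), Benjamini-Hochberg adjustment over 12009 tested genes), and the complexes kept similar summed levels in exposed and vehicle cells. Ndufaf1, a complex I assembly factor, was lower in every exposed library than in any vehicle library. Its adjusted p was 0.345, 0.117 and 0.156 for CPC, AEBDAC and MTOAC. Below vehicle without overlap lay 18.0%, 19.2% and 22.4% of all tested genes, each compound being compared with the same vehicle libraries. The share of genes lower in all exposed libraries was not computed, and Ndufaf1 is named here because of that pattern. Since no label states separate cultures for the libraries, p-values reflect how far these libraries differ within a group, which may be technical. In bulk RNA, fewer cells of a type and less RNA per cell cannot be told apart.

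Vehicle library 1 and MTOAC library 3 stood apart from the others in ways that touch these genes. The 13 mitochondrially encoded subunits summed to 86421.6 TPM in vehicle library 1, against 147539 to 183001 TPM in the other 11 libraries, and mt-Nd3 was listed at 0 there. Among the 79 members with a mean of at least 20 TPM, 40 had a longest coding transcript of at most 918 bases (the median) and 39 had a longer one. In vehicle library 1 the short members had a median deviation from their group mean of -0.15 on the log2(TPM + 1) scale and the long members 0.25. In MTOAC library 3 the short members had a median deviation of -0.29 and the long ones -0.02. In vehicle library 3 the order was the other way, 0.15 for short and -0.12 for long members. Deviations within a group balance out for each gene, so this order is not independent of vehicle library 1. A trend with length was not confined to the libraries named. The rank correlation with transcript length was 0.38 in vehicle library 1 and 0.51 in MTOAC library 3, but also 0.41 in CPC library 1 and -0.46 in MTOAC library 2. Differences that rest on vehicle library 1 or MTOAC library 3 are therefore given below library by library, and the part of RNA quality or fragment length in them was not tested.

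**Figure D1:**
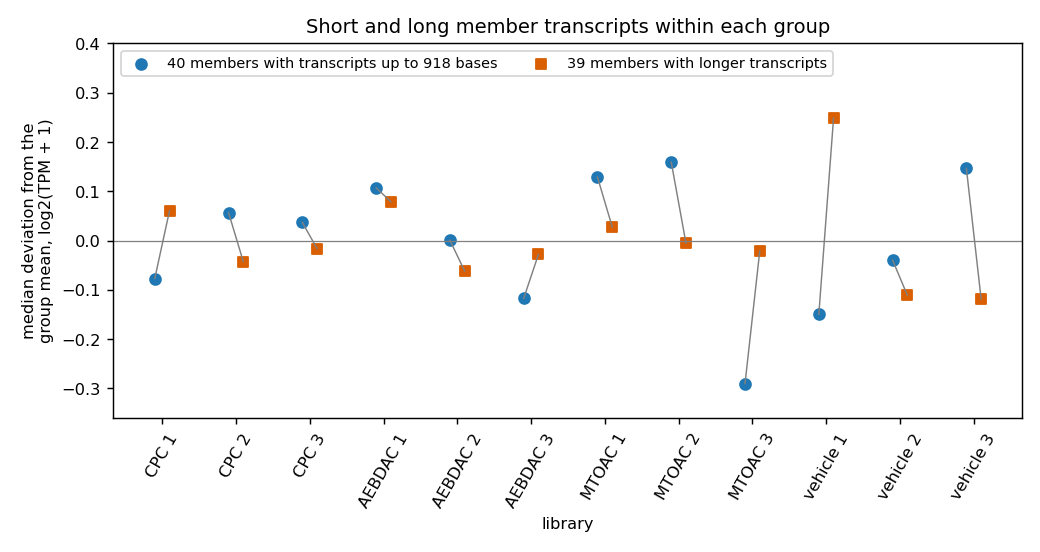
Median deviation of the short members (circles) and the long members (squares) from their group mean, on the log2(TPM + 1) scale, in each library, for the 79 members with a mean of at least 20 TPM. The short and long medians are farthest apart in vehicle library 1 (-0.15 and 0.25), and the lowest short median is in MTOAC library 3 (-0.29).

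In vehicle cells the ATP synthase had the highest members and complex I the lowest subunit median. Per transcript length, as TPM is, the median subunit level was 181.7 TPM in complex I, 243.9 TPM in complex II, 482.3 TPM in complex III, 306 TPM in complex IV and 505.4 TPM in complex V. Atp5b, the catalytic beta subunit of ATP synthase, was the highest member, at 3535, 3922.5 and 3641 TPM in vehicle libraries 1, 2 and 3. Complex II was the most even complex, with Sdhd, a membrane anchor, at a mean of 174.8 TPM and Sdha, the flavoprotein, at 253.3 TPM, a ratio of 1.45. In the other complexes the highest subunit exceeded the lowest by up to 1488 times, and each held a subunit under 20 TPM that is part of every finished complex.

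These low values include Ndufv1, the NADH-binding flavoprotein of complex I, at 7.13 TPM. Uqcrc1, a large matrix-facing core protein of complex III, stood at 1.77 TPM beside Uqcrc2, its partner, at 202.8 TPM. Cox4i1, the ubiquitous isoform of subunit 4, stood at 19.5 TPM, while Cox8a reached 1517 TPM. In complex V, Atp5d, a subunit of the central stalk, stood at 12.9 TPM. The 13 subunits under 20 TPM had a median of 3 annotated coding transcripts and 1 of them had a single coding transcript, while the other 67 subunits had a median of 2 and 25 had a single one. Actb and Eef1a1, genes that cells transcribe at high levels, likewise averaged only 36.3 and 55.4 TPM in vehicle cells, with Gapdh at 2185 TPM. How transcripts were combined into the deposited gene values is not given in the sources used, so a level this low for a required subunit may not be the level of the whole gene.

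**Figure D2:**
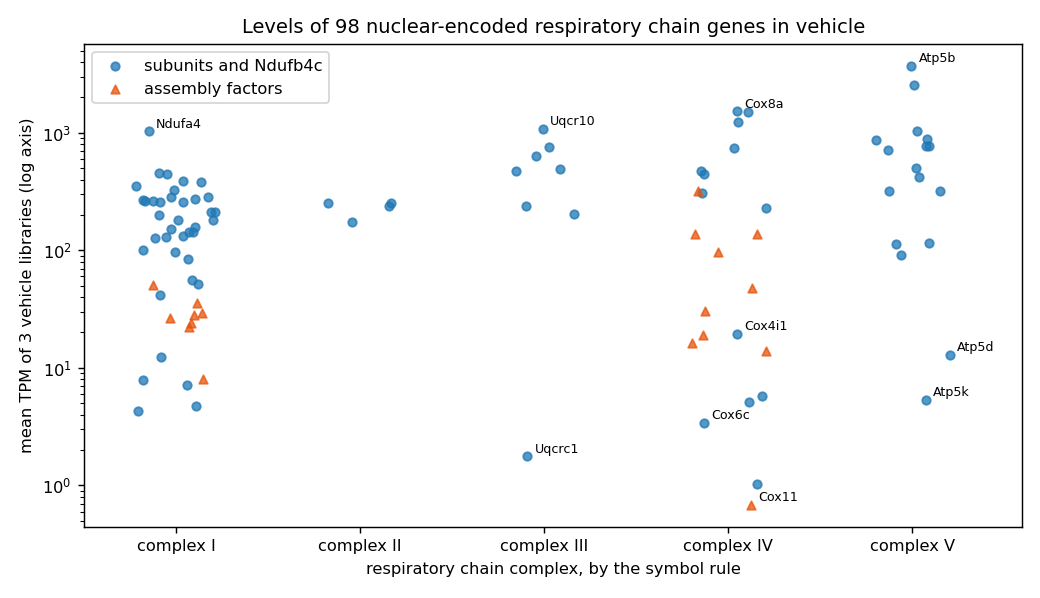
Level of each of the 98 members in vehicle cells (mean TPM of 3 libraries, log axis), by complex, with subunits and assembly factors marked apart. Subunit levels run between Cox7a1 at 1.02 TPM and Atp5b at 3699.6 TPM, and the 4 members of complex II lie closest together.

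In both isoform pairs the form known outside muscle was the higher one. Cox7a2 averaged 474 TPM in vehicle cells against 1.02 TPM for Cox7a1, the heart and skeletal muscle form. Cox6a1, the form found in liver and brain, averaged 1494 TPM against 5.11 TPM for Cox6a2, the muscle form. The 3 genes for the same c subunit of the ATP synthase ring, Atp5g1, Atp5g2 and Atp5g3, were summed, since they make 1 mature protein. Their sum averaged 1494 ± 85.1 TPM in CPC cells, 1609 ± 137 TPM in AEBDAC cells, 1419 ± 324 TPM in MTOAC cells and 1484 ± 186 TPM in vehicle cells (SD, n = 3 each).

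For 25 of the 97 members with an annotated transcript, another gene had a transcript at least 95% identical over at least 250 bases, and in 5 of these the other gene's vehicle level exceeded 10% of the member's. Ndufb4c is annotated as a processed pseudogene whose 390 bases are 100% identical to Ndufb4, an accessory complex I subunit, and the deposited values put 451 TPM on Ndufb4c and 55.9 TPM on Ndufb4 in vehicle cells. Their sum averaged 434 ± 60.4 TPM in CPC cells, 403 ± 31.6 TPM in AEBDAC cells, 439 ± 33.2 TPM in MTOAC cells and 507 ± 90.7 TPM in vehicle cells (SD, n = 3 each), and the division between them is uncertain. Ndufb4c alone had 376, 345 and 325 TPM in AEBDAC libraries, all below its 551, 387 and 415.5 TPM in vehicle libraries (-0.36, adjusted p = 0.241). Cox11, a copper-delivery factor for complex IV, averaged 0.684 TPM and shares 578 bases at 99.3% identity with Tom1l1, a neighbouring gene at 17.6 TPM. The strand setting of the counting is not given, and 27 members overlap an annotated gene on the opposite strand.

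The promoter sequence is shown for 4 members that recur in the results below, 2 haem assembly factors of complex IV and 2 subunits of complex III, because nuclear respiratory genes are known as targets of NRF1, GABPA (NRF2) and YY1. Each window runs 5′ to 3′ on the gene's strand, 250 bases before to 50 after the start, from RefSeq on GRCm38.p6. The letters searched on both strands were CCGGAAGT for GABPA, GCATGCGC for NRF1 and AAGATGGCG for YY1, and capitals mark matches on either strand. None of the 3 sets of letters contains another. Each of the 4 windows shown holds a set, while most of the 80 members with a window hold none, Ndufaf1, Ndufaf7, Sdha and Sdhd among them. The 4 are therefore not typical of the windows. In Uqcrc1 the capitals join 2 overlapping NRF1 matches, 1 on each strand.
Cox10: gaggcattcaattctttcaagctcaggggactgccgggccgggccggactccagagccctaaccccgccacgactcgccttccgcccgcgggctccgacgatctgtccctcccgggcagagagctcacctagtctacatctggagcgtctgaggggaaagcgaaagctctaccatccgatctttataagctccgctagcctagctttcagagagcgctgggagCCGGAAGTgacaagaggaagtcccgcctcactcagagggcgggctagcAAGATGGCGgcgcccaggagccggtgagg
Cox15: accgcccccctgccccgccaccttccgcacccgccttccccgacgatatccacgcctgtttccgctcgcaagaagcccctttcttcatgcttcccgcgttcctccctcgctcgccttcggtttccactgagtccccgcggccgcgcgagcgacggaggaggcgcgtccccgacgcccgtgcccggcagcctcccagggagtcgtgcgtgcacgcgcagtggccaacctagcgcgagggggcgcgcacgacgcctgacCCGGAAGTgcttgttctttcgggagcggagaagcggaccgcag
Uqcrc1: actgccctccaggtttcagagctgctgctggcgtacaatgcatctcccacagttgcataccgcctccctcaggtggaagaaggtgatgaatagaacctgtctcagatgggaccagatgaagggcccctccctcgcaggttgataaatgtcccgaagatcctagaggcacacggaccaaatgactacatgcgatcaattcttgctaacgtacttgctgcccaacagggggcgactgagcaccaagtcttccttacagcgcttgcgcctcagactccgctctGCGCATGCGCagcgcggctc
Uqcr11: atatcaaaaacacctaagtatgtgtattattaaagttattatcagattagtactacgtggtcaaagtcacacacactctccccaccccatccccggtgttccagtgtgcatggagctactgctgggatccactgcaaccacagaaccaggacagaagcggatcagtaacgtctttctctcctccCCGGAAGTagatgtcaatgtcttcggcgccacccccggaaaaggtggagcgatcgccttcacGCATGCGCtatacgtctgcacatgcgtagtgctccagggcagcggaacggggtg
Cox10, on chr11:64079423-64079722 (minus strand), holds the GABPA and the YY1 letters, and Cox15, on chr19:43752951-43753250 (minus strand), the GABPA letters. Uqcrc1, on chr9:108936398-108936697 (plus strand), holds the NRF1 letters, and Uqcr11, on chr10:80406772-80407071 (minus strand), holds both the GABPA and the NRF1 letters. Over the 80 members with a window, 9 (11.2%) held the GABPA letters, against 9.66% of 9062 tested genes and 4.31% of 27025 genes with a window. The NRF1 letters were in 12 (15%) of the 80, against 6.51% and 3.05%, and the YY1 letters in 9 (11.2%), against 3.85% and 1.64%. By complex, the GABPA letters were in 1 of 40 windows of complex I and 5 of 18 of complex IV, and the NRF1 letters in 5 of 40 and 1 of 18. These matches are a description of the windows and show no binding.

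The summed levels of every complex overlapped between exposed and vehicle libraries. Complex I summed to 7928 ± 231 TPM in CPC cells, 8153 ± 473 TPM in AEBDAC cells, 7800.3 ± 784 TPM in MTOAC cells and 8184 ± 436 TPM in vehicle cells (SD, n = 3 each, also below). Complex III summed to 3819 ± 134, 4040.1 ± 357 and 3739 ± 566 TPM in CPC, AEBDAC and MTOAC cells and to 3876 ± 444 TPM in vehicle cells. Complex IV summed to 7581 ± 100.2, 7683 ± 568 and 7395 ± 844 TPM in CPC, AEBDAC and MTOAC cells and to 7299.9 ± 462 TPM in vehicle cells. MTOAC library 3 was the lowest of the 12 for complexes I, III and IV, at 6898, 3091 and 6422 TPM.

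Complex V, which holds the highest members, summed to 13190.2 ± 429, 13089 ± 1448 and 13110 ± 1206 TPM in CPC, AEBDAC and MTOAC cells, against 13193 ± 218 TPM in vehicle cells. Complex II summed to 790.3 ± 56.3, 818 ± 72.3 and 800.3 ± 57.8 TPM in CPC, AEBDAC and MTOAC cells, against 916 ± 229 TPM in vehicle cells. The vehicle mean of complex II rests on vehicle library 1, at 1177 TPM, while vehicle libraries 2 and 3 had 751 and 820.2 TPM and the 9 exposed libraries lay at 732 to 886 TPM. All 98 members together took 4.20 ± 0.119% of the summed TPM in CPC cells, 4.29 ± 0.367% in AEBDAC cells, 4.15 ± 0.427% in MTOAC cells and 4.26 ± 0.186% in vehicle cells.

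**Figure D3:**
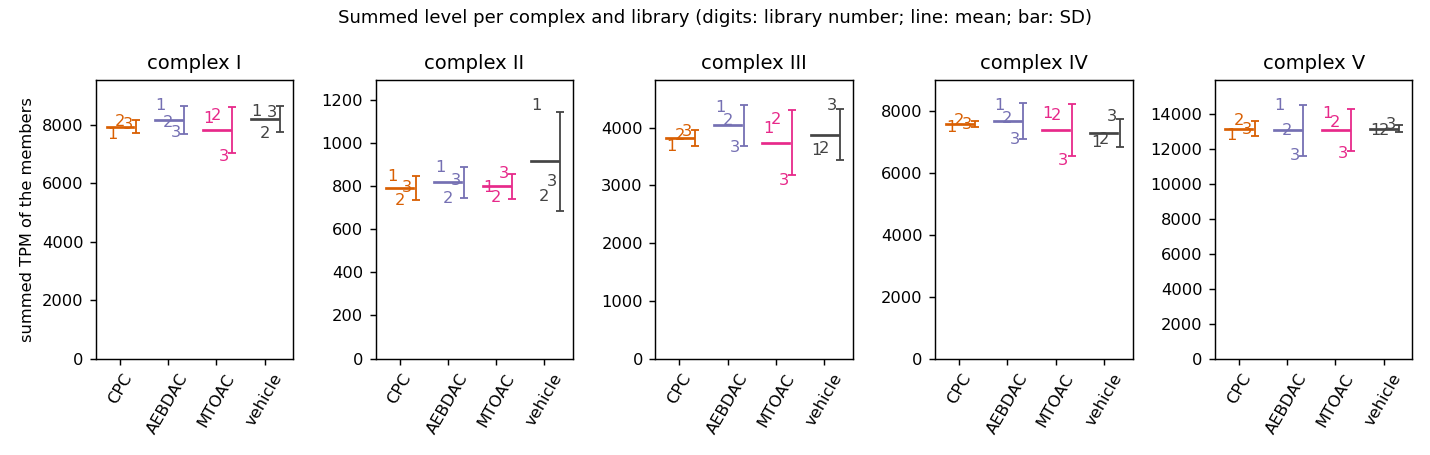
Summed TPM of the members of each complex in each of the 12 libraries (digits are library numbers) with the group mean (line) and SD (bar), CPC, AEBDAC and MTOAC left of vehicle. The groups overlap in every complex, vehicle library 1 is the highest for complex II at 1177 TPM, and MTOAC library 3 is the lowest for complex IV at 6422 TPM.

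In the comparison of CPC with vehicle, 0 of the 98 members were called, beside 0.0666% of all tested genes, 8 in number (184 of all genes, and still 0 members, with the replicate number as a block). An unadjusted p under 0.05 was reached by 5 of 98 members, 1 higher and 4 lower, against 13.6% of all tested genes (1.81% higher and 11.8% lower). The 3 CPC and 3 vehicle libraries did not overlap for 6 members, 2 higher and 4 lower, against 20.6% of all tested genes (2.58% higher and 18.0% lower). The median log2 fold change was -0.02 over the members and -0.17 over all tested genes, and 76 of 98 members lay above the median gene. By complex the median was -0.04 for I, -0.18 for II, -0.01 for III, 0.01 for IV and 0.01 for V.

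In AEBDAC cells against vehicle, 0 of the 98 members were called, beside 1.27% of all tested genes, and 4 members had an unadjusted p under 0.05, 1 higher and 3 lower, against 19.2% of all tested genes (3.95% higher and 15.2% lower). For 6 members, 2 higher and 4 lower, the AEBDAC and vehicle libraries did not overlap, against 24.9% of all tested genes (5.65% higher and 19.2% lower). The median log2 fold change was 0.01 over the members and -0.16 over all tested genes, with 74 members above the median gene. The medians were -0.01 for complex I, -0.15 for II, 0.05 for III, 0.06 for IV and 0.03 for V.

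In MTOAC cells against vehicle, 0 of the 98 members were called, beside 6.54% of all tested genes, the highest share of the 3 compounds. Of the members, 9 (9.18%) had an unadjusted p under 0.05, 1 higher and 8 lower, against 24.4% of all tested genes (3.40% higher and 21.0% lower). The MTOAC and vehicle libraries did not overlap for 6 members, 2 higher and 4 lower, against 26.4% of all tested genes (3.99% higher and 22.4% lower). The median was -0.07 over the members and -0.22 over all tested genes, with 76 members above the median gene, and by complex it was -0.10 for I, -0.17 for II, -0.02 for III, -0.06 for IV and -0.01 for V. The 3 comparisons share the vehicle libraries. Quantile normalization removes the shift of the median gene, and the member medians were then 0.07, 0.04 and 0.01 for CPC, AEBDAC and MTOAC, so the sign of a complex's median close to 0 depends on the scaling. The gap to the median gene goes with level: among genes with at least 100 TPM the medians were -0.01, 0.03 and -0.06 over 63 members for CPC, AEBDAC and MTOAC, and -0.05, -0.02 and -0.04 over the 895 tested genes at that level.

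**Figure D4:**
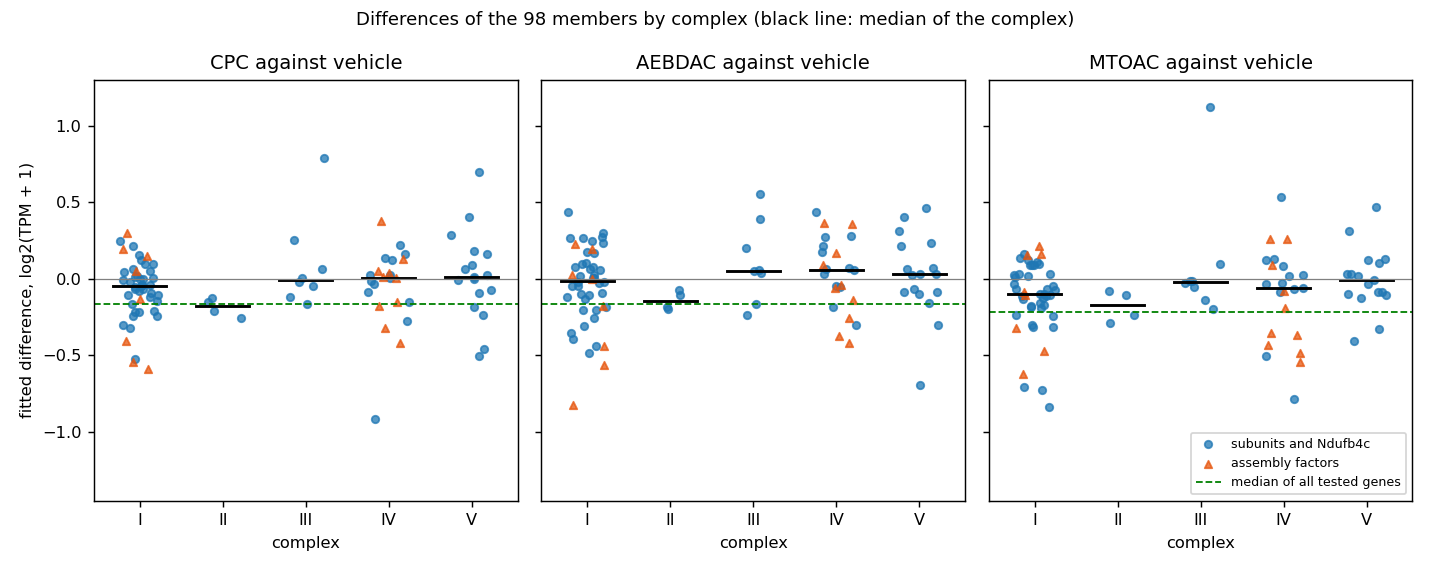
Log2 fold change over vehicle of each member in CPC, AEBDAC and MTOAC cells, by complex, on the log2(TPM + 1) scale, with the median of each complex (black line) and of all tested genes (dashed line). Most members lie near 0 and above the dashed line (-0.17, -0.16 and -0.22), and the members beyond 0.5 in either direction all averaged under 100 TPM in vehicle cells.

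For most members a change of more than 2-fold lay outside the interval of the measurement. The 95% interval of the fold change over vehicle lay within 2-fold for 80 members in CPC cells, 77 in AEBDAC cells and 79 in MTOAC cells, or 81.6%, 78.6% and 80.6%, against 63.1%, 58.8% and 55.5% of all tested genes. Members are highly expressed, and part of this gap goes with level: among the 63 members with at least 100 TPM the shares were 96.8%, 92.1% and 98.4%, against 92.1%, 90.4% and 90.5% of the 895 tested genes at that level. At that level 1, 1 and 3 of the 63 members had an unadjusted p under 0.05 in CPC, AEBDAC and MTOAC cells, against 82, 117 and 143 of the 895 genes. Atp5f1, the b subunit of the peripheral stalk, varied least of all members. It averaged 316 ± 2.74 TPM in CPC cells, 322 ± 5.25 TPM in AEBDAC cells and 323 ± 12.7 TPM in MTOAC cells, against 316 ± 15.2 TPM in vehicle cells.

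Among the 18 assembly factors, 4 in CPC cells, 3 in AEBDAC cells and 5 in MTOAC cells had an unadjusted p under 0.05, or 22.2%, 16.7% and 27.8%, against 13.6%, 19.2% and 24.4% of all tested genes. The same held for 1, 1 and 4 of the 80 subunits, or 1.25%, 1.25% and 5%, where the 1 in AEBDAC cells is Ndufb4c. The shares of the assembly factors thus lay near those of all tested genes and the shares of the subunits below them, and the difference between the roles was not tested. The assembly factors were also lower in level: apart from Cox7a2l, a supercomplex factor at 322 TPM, they averaged at most 138 TPM in vehicle cells.

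Ndufaf1, which helps build the membrane arm of complex I, lies on chr2:119655446-119662827 (GRCm38, minus strand). It had 20.0, 15.5 and 19.2 TPM in CPC libraries 1, 2 and 3, 19.7, 12.7 and 14.2 TPM in AEBDAC libraries, and 20.3, 11.8 and 23.1 TPM in MTOAC libraries, against 34.9, 24.3 and 25.3 TPM in vehicle libraries. All 9 exposed libraries lay below the lowest vehicle library, with MTOAC library 3 the closest to it and vehicle library 1 well above the other vehicle libraries. The share of all tested genes with this pattern was not computed. The log2 fold change was -0.59 ± 0.25 (SE) for CPC (adjusted p = 0.345), -0.82 ± 0.25 for AEBDAC (adjusted p = 0.117) and -0.62 ± 0.25 for MTOAC (adjusted p = 0.156). Its promoter window held none of the 3 sets of letters.

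Ndufaf7, a methyltransferase that acts during complex I assembly, had 20.1, 14.7 and 17.3 TPM in CPC libraries, 18.5, 19.9 and 17.7 TPM in AEBDAC libraries and 16.5, 15.2 and 23.8 TPM in MTOAC libraries, against 36.5, 21.5 and 21.3 TPM in vehicle libraries. The CPC and AEBDAC libraries lay below all vehicle libraries, and MTOAC library 3 lay above 2 of them. The log2 fold changes were -0.54, -0.44 and -0.47 (adjusted p = 0.339, 0.324 and 0.227). Of the other 6 complex I assembly factors, Ndufaf5 averaged 24.9 ± 1.34 TPM in CPC cells, 24.4 ± 1.04 TPM in AEBDAC cells and 26.9 ± 0.807 TPM in MTOAC cells, against 24.1 ± 3.02 TPM in vehicle cells. None of those 6 had an unadjusted p under 0.05 for any compound.

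Cox15 and Cox10 act in sequence to make haem A, the haem of complex IV, and their fold changes over vehicle had opposite signs for each compound. Cox15, on chr19:43733254-43753000 (minus strand), had 13.2, 12.03 and 12.5 TPM in CPC libraries, 14.7, 10.1 and 10.6 TPM in AEBDAC libraries and 10.7, 9.17 and 12.1 TPM in MTOAC libraries, against 19.3, 16.2 and 12.8 TPM in vehicle libraries. Only the MTOAC libraries all lay below the vehicle libraries (-0.55 ± 0.19, adjusted p = 0.103), and the log2 fold changes were -0.32 for CPC and -0.42 for AEBDAC. Cox15 shares 444 identical bases with Entpd7, which overlaps it on the opposite strand. Cox10 had 12.6, 18.2 and 15.3 TPM in CPC libraries, 18.9, 18.9 and 16.4 TPM in AEBDAC libraries and 14.5, 17.7 and 18.1 TPM in MTOAC libraries, against 13.5, 13.5 and 14.4 TPM in vehicle libraries. The AEBDAC and MTOAC libraries lay above all vehicle libraries, by 0.36 ± 0.16 (adjusted p = 0.236) and 0.26 (adjusted p = 0.339) on the log2 scale, and CPC library 1 lay below them.

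Cox17, the copper chaperone that supplies complex IV, had 122, 106 and 141 TPM in CPC libraries, 117, 146 and 111 TPM in AEBDAC libraries and 107, 109.8 and 99.3 TPM in MTOAC libraries, against 128, 131 and 149.99 TPM in vehicle libraries. The MTOAC libraries lay below all vehicle libraries (-0.37 ± 0.14, adjusted p = 0.121), and the CPC and AEBDAC libraries overlapped them. Cox19, which works with Cox17 in copper handling, had 26.8, 22.04 and 15.9 TPM in MTOAC libraries against 21.4, 36.4 and 34.1 TPM in vehicle libraries, which overlap through vehicle library 1 (-0.48, adjusted p = 0.203). Cox20, a chaperone of the mitochondrially encoded Cox2 protein, had 119, 92.9 and 92.1 TPM in CPC libraries, 115, 101.4 and 95.5 TPM in AEBDAC libraries and 113, 87.5 and 99.3 TPM in MTOAC libraries, against 178, 103 and 133 TPM in vehicle libraries. Each compound's libraries overlapped vehicle library 2, and the log2 fold changes were -0.42, -0.37 and -0.43 (adjusted p = 0.360, 0.312 and 0.185). Cox18, which inserts a domain of Cox2 into the membrane, had 26.9, 21.2 and 27.6 TPM in CPC libraries against 21.2, 19.0 and 17.4 TPM in vehicle libraries. The lowest CPC and highest vehicle library were nearly level, and the fold change was 0.38 ± 0.14 on the log2 scale (adjusted p = 0.299).

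**Figure D5:**
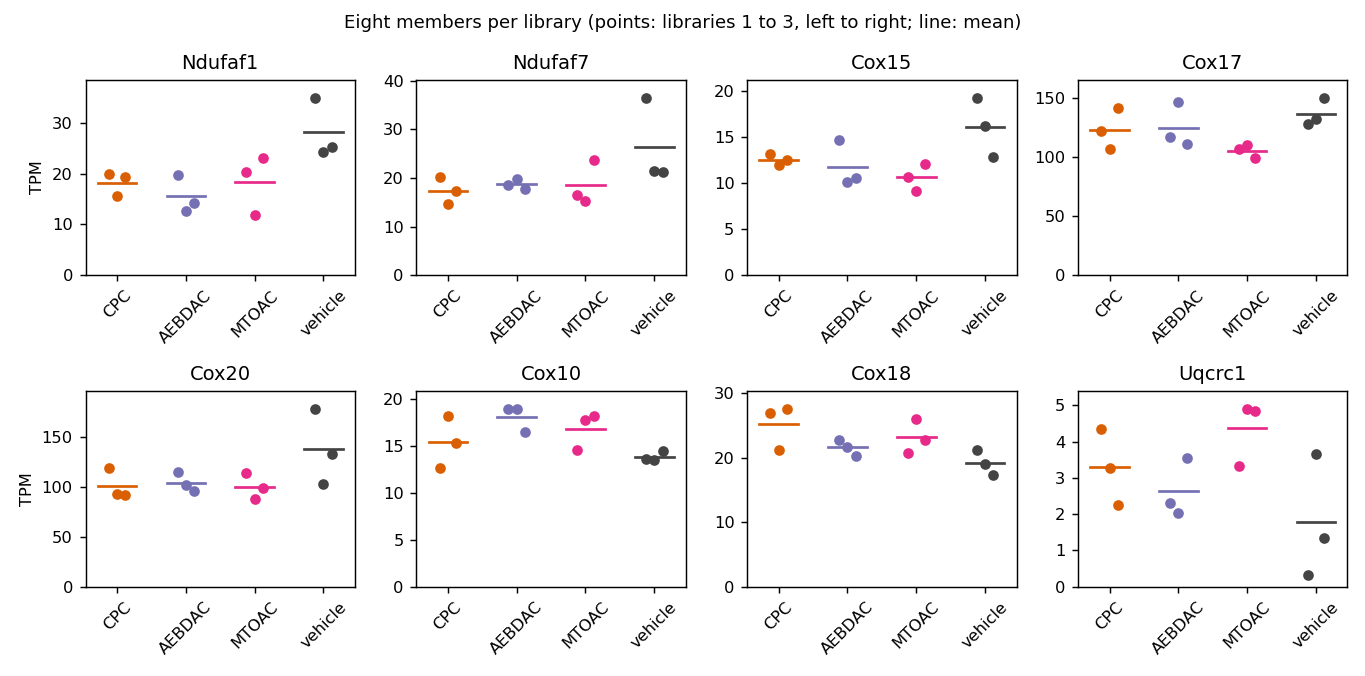
TPM in each library of 8 members, 7 assembly factors and the complex III subunit Uqcrc1, in CPC, AEBDAC, MTOAC and vehicle cells, with group means. Ndufaf1 is the member whose 9 exposed libraries (11.8 to 23.1 TPM) all lie below its vehicle libraries (24.3 to 34.9 TPM).

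Among complex I subunits, Ndufb3, a small membrane-arm subunit, had 63.3, 68.7 and 70.2 TPM in CPC libraries, 71.0, 82.2 and 67.5 TPM in AEBDAC libraries and 65.7, 77.4 and 58.5 TPM in MTOAC libraries, against 89.8, 74.0 and 87.2 TPM in vehicle libraries. The CPC libraries lay below all vehicle libraries (-0.30 ± 0.13, adjusted p = 0.346), and MTOAC library 2 lay above vehicle library 2 (-0.32, adjusted p = 0.163). Of the core subunits, Ndufs1, the large iron-sulphur protein, averaged 41.3 ± 8.21, 43.0 ± 6.89 and 41.6 ± 6.36 TPM in CPC, AEBDAC and MTOAC cells, against 51.3 ± 5.39 TPM in vehicle cells, and did not pass. Ndufv2 averaged 42.0 ± 3.96, 43.8 ± 5.59 and 36.8 ± 7.96 TPM in CPC, AEBDAC and MTOAC cells, against 41.4 ± 3.33 TPM in vehicle cells, and did not pass.

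The 4 subunits of succinate dehydrogenase had negative log2 fold changes for every compound. So did 71.0%, 66.9% and 71.7% of all tested genes for CPC, AEBDAC and MTOAC. Relative to the median gene, the complex II medians were -0.01, 0.02 and 0.05. Sdha had 206, 197 and 202 TPM in CPC libraries, 244, 204 and 193 TPM in AEBDAC libraries and 187, 187 and 244 TPM in MTOAC libraries, against 369, 185 and 206 TPM in vehicle libraries. Its fold changes of -0.26, -0.18 and -0.24 come with vehicle library 1, since vehicle library 2 was the lowest of the 12 and vehicle library 3 lay within the range of the exposed libraries. Without that library the complex II medians were 0.046, 0.092 and 0.065 for CPC, AEBDAC and MTOAC, so their direction turned. Sdhd had 159, 145 and 148 TPM in CPC libraries, 172, 139 and 146 TPM in AEBDAC libraries and 158, 142 and 130.1 TPM in MTOAC libraries, against 189, 156 and 179.98 TPM in vehicle libraries. Its lowest value was in MTOAC library 3, and its groups overlapped for each compound, with -0.29 ± 0.12 for MTOAC (adjusted p = 0.160).

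In complex III, Uqcrc1 had the highest fold change of any member with an unadjusted p under 0.05. It had 4.33, 3.27 and 2.26 TPM in CPC libraries, 2.32, 2.03 and 3.55 TPM in AEBDAC libraries and 3.33, 4.90 and 4.86 TPM in MTOAC libraries, against 0.331, 3.66 and 1.33 TPM in vehicle libraries. The vehicle libraries spread more widely than any exposed group, and vehicle library 2 overlaps all 3 of them (1.12 ± 0.40 for MTOAC, adjusted p = 0.112). Uqcr11, a small accessory subunit, varied more within MTOAC and vehicle cells than within CPC and AEBDAC cells. It had 455, 555 and 545 TPM in CPC libraries, 651, 631 and 449 TPM in AEBDAC libraries and 514, 614 and 251 TPM in MTOAC libraries, against 242, 514 and 655 TPM in vehicle libraries. MTOAC library 3 and vehicle library 1 were the low ones. The iron-sulphur protein Uqcrfs1 averaged 238 ± 5.36, 244 ± 9.41 and 229 ± 22.1 TPM in CPC, AEBDAC and MTOAC cells, against 237 ± 5.74 TPM in vehicle cells.

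No complex IV subunit had an unadjusted p under 0.05 for any compound. Cox6a1 had 1666, 1719 and 1613 TPM in CPC libraries against 1295, 1588 and 1600.4 TPM in vehicle libraries, which did not overlap (0.16, adjusted p = 0.588). Cox6a2 had 6.29, 7.61 and 7.82 TPM in AEBDAC libraries and 6.30, 6.77 and 11.05 TPM in MTOAC libraries, against 4.96, 4.39 and 5.97 TPM in vehicle libraries. Both compounds' libraries lay above vehicle (0.44 and 0.54, adjusted p = 0.525 and 0.374), at a few TPM. Cox4i1 averaged 17.4 ± 5.34, 16.6 ± 2.05 and 13.1 ± 2.03 TPM in CPC, AEBDAC and MTOAC cells, against 19.5 ± 6.37 TPM in vehicle cells, with overlapping libraries.

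No complex V member had an unadjusted p under 0.05 for any compound. Atp5b had 3870.1, 4126 and 3832 TPM in CPC libraries, 4238, 3535 and 2835 TPM in AEBDAC libraries and 4254, 3529.6 and 3498 TPM in MTOAC libraries, against the 3 vehicle values above, and each group overlapped vehicle (0.09, -0.08 and 0.02 on the log2 scale). Its partner Atp5a1, the alpha subunit, was the most variable member, with 131, 19.8 and 50.4 TPM in CPC libraries, 59.0, 30.8 and 154 TPM in AEBDAC libraries and 94.1, 44.3 and 223 TPM in MTOAC libraries, against 249.6, 65.8 and 20.8 TPM in vehicle libraries. Its highest values were in vehicle library 1 and MTOAC library 3, and its level was far below that of Atp5b in every library although both form the same catalytic ring. Atp5j, a peripheral stalk subunit, had 57.4, 52.7 and 48.5 TPM in AEBDAC libraries, all below the 133, 66.1 and 72.2 TPM of vehicle libraries (-0.69, adjusted p = 0.326), and Gabpa overlaps it on the opposite strand.

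Other genes of oxidative metabolism, counted by lists, gave 1 call in all. Of the 13 mitochondrially encoded subunits, 0 were called, with medians of 0.15, 0.02 and 0.12 for CPC, AEBDAC and MTOAC against vehicle. Their sum was 86421.6, 177124 and 169115 TPM in vehicle libraries 1, 2 and 3. It ran from 157847 to 183001, 147539 to 155755 and 152049 to 176673 TPM in CPC, AEBDAC and MTOAC libraries. All AEBDAC libraries thus lay above vehicle library 1 and below vehicle libraries 2 and 3. The medians are differences from a vehicle mean that includes library 1. Of 17 tricarboxylic acid cycle enzymes 0 were called (medians -0.15, -0.12 and -0.10), and of 15 glycolysis enzymes 0 were called (-0.16, -0.10 and -0.17). For 13 genes of electron carriers and their synthesis, with Cyc1, a complex III subunit that the name rule misses, the medians were -0.15, -0.16 and -0.22 with 0 called. For 13 regulators of nuclear respiratory genes the medians were -0.26, -0.10 and -0.19 with 0 called. Of these, Pprc1, a coactivator related to PGC-1α, had log2 fold changes of 0.92 for AEBDAC (adjusted p = 0.110) and 0.95 for MTOAC (adjusted p = 0.0628).

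For 37 assembly factors that the name rule misses, the medians were -0.28, -0.30 and -0.35, or -0.11, -0.14 and -0.13 relative to the median gene. Unadjusted p was under 0.05 for 7, 8 and 14 of the 37, against 13.6%, 19.2% and 24.4% of all tested genes. Lower at that p were 7, 7 and 14 of the 37, against 11.8%, 15.2% and 21.0% of all tested genes. The difference from all tested genes was not tested. Taco1, a translational activator of the mitochondrially encoded Cox1 protein, had 16.7, 15.0 and 18.3 TPM in CPC libraries, 19.7, 14.4 and 15.98 TPM in AEBDAC libraries and 14.1, 13.8 and 12.4 TPM in MTOAC libraries, against 19.1, 22.4 and 19.8 TPM in vehicle libraries. The MTOAC libraries lay below all vehicle libraries, and Taco1 was called lower in MTOAC cells (-0.57 ± 0.15, adjusted p = 0.0463). It was the 1 call among the 37, against 6.54% of all tested genes called for MTOAC. That call was lost without any 1 of the 6 MTOAC and vehicle libraries, at adjusted p of 0.0789 to 0.115, and over all alternatives its adjusted p ran between 0.0298 and 0.322.

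The cells carried OPC markers, and the sum of these was lower in the libraries of all 3 exposures than in any vehicle library. The median log2 fold change of these markers was -0.22, -0.19 and -0.38 for CPC, AEBDAC and MTOAC, against -0.17, -0.16 and -0.22 over all tested genes. Of all tested genes, 18.0%, 19.2% and 22.4% lay below vehicle without overlap. The 10 OPC markers summed to 1751 to 1908 TPM in CPC libraries, 1666 to 1891 TPM in AEBDAC libraries and 1457 to 1525 TPM in MTOAC libraries, against 2158 to 2546 TPM in vehicle libraries. Of the 10, 0, 1 and 3 were called lower in CPC, AEBDAC and MTOAC cells, against 0.0666%, 1.27% and 6.54% of all tested genes called in either direction. These were Olig1 in AEBDAC and MTOAC cells and Gpr17 and Pdgfra in MTOAC cells. An unadjusted p under 0.05 was reached by 3, 2 and 5, all lower, against 11.8%, 15.2% and 21.0% of all tested genes that were lower at that p. Neuronal markers summed to 332 to 401, 315 to 356 and 264 to 352 TPM in CPC, AEBDAC and MTOAC libraries, against 436 to 486 TPM in vehicle libraries, and Map2 was called lower in MTOAC cells. The median over the 7 neuronal markers past the filter was -0.22, -0.07 and -0.26, near that of all tested genes or above it. Of these 7, 3, 4 and 3 lay above the median gene. Markers of differentiated oligodendrocytes, 4 of 10 past the filter with Mog and Mal at 0, summed to 38.0 to 54.5, 37.0 to 53.8 and 35.8 to 48.9 TPM in CPC, AEBDAC and MTOAC libraries, against 53.6 to 77.6 TPM in vehicle libraries, and Cnp was called lower in MTOAC cells. Astrocyte markers summed to 262 to 309, 299 to 332 and 249.6 to 307 TPM in CPC, AEBDAC and MTOAC libraries, against 279 to 359 TPM in vehicle libraries, with 0 of 6 called. None of the 8 microglial markers passed the filter, and Cx3cr1 and C1qa were at 0. Pluripotent cell markers, 3 of 10 past the filter with Zfp42 and Lin28a at 0, summed to 11.05 to 34.2, 11.3 to 37.9 and 13.8 to 38.9 TPM in CPC, AEBDAC and MTOAC libraries, against 8.42 to 35.8 TPM in vehicle libraries. Mesenchymal markers, 4 of 10 past the filter with Pdgfrb at 0, summed to 66.3 to 122.6, 80.0 to 151 and 78.8 to 139 TPM in CPC, AEBDAC and MTOAC libraries, against 58.5 to 92.9 TPM in vehicle libraries. All 3 and all 4 had positive fold changes for each compound, with 0 called and 0 at an unadjusted p under 0.05. The part of these markers in the values of Ndufaf1, Cox15, Cox17 and Taco1 was not tested.

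Between compounds, each at its IC75, 3 pairs were compared, with p-values adjusted over all genes within a pair. No member was called in any pair (smallest adjusted p 1), beside 0.00% of all tested genes in each. An unadjusted p under 0.05 was reached by 0, 2 and 0 members for AEBDAC against CPC, MTOAC against CPC and MTOAC against AEBDAC, against 1.76%, 3.74% and 2.56% of all tested genes. Libraries did not overlap for 4, 4 and 5 members, against 6.88%, 8.60% and 6.94% of all tested genes. The interval of the difference lay within 2-fold for 85.7%, 84.7% and 82.7% of members, and for the rest these data do not bound the difference at 2-fold.

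The members with an unadjusted p under 0.05 between MTOAC, which lacks a ring, and CPC, which has the pyridinium ring, were Atp5k and Cox19. Atp5k, an accessory subunit at the dimer interface, had 5.12, 4.02 and 2.97 TPM in MTOAC libraries, against 12.7, 6.29 and 9.29 TPM in CPC libraries. The groups did not overlap, and the difference was -1.02 (95% interval -2.02 to -0.03) on the log2 scale. Cox19 had the MTOAC values above against 31.4, 29.2 and 29.7 TPM in CPC libraries, and its difference was -0.49 (95% interval -0.97 to -0.01). Between AEBDAC and CPC, which both carry a ring, Uqcrq had 724 ± 13.8 TPM in AEBDAC cells and 660 ± 68.9 TPM in CPC cells, a difference of 0.14 without overlap. Between MTOAC and AEBDAC, Cox17 differed by -0.23 and Cox19 by -0.45, both without overlap. Since the doses are not known to match, these pairs set compounds side by side and compare no structures at a matched dose.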

How the data were processed

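The deposited values are TPM per gene symbol for each of 12 libraries, quantified by the authors with Salmon against mm10 per the submitters' processing notes; the sources used here do not give its version, the annotation or how transcripts were combined into genes. Libraries were poly(A)-selected and sequenced with 150 bp paired reads to a stated minimum depth per the labels, and TPM itself keeps no depth, so precision is judged from the spread between libraries alone. Summed TPM ran between 772637 and 797758. TPM divides by transcript length, so fragmentation or an isoform choice that differs between libraries can move short and long genes apart.

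The 12009 genes reaching 1 TPM in 3 or more libraries went into limma 3.58.1 in R 4.3.3 (trend and robust empirical Bayes) on log2(TPM + 1), 12 libraries and 4 group means in 1 fit, two-sided, Benjamini-Hochberg adjustment over all tested genes within each of 6 comparisons, with calls at 0.05. Fold changes are on the log2(TPM + 1) scale, which understates changes of low genes. With 3 libraries a group, an exact permutation p is never under 0.1, and none was computed. The fit was tested on simulated data.

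The members, roles and pathway and marker lists were chosen with earlier results of these data known. Genes named were any called, the highest and lowest member per complex, the 2 smallest p per complex and compound, fixed members by role, and called genes of each pathway list. Uqcr11, Cox19, Ndufb4, Atp5f1, Atp5d, Pprc1 and the genes quoted as level checks fall outside that rule and were chosen after their values were seen. A member that the rule names is not reported here by name, though the counts include it. Promoters came from RefSeq on GRCm38.p6 for 80 members, gene positions and strands from GENCODE M21 for 97, and near copies from blastn 2.17.0.

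Replicate numbers were taken to pair libraries where all 3 same-number correlations of deviations from the group means exceeded 0.1. This held for CPC with vehicle (0.34, 0.31 and 0.23), AEBDAC with CPC (0.28, 0.42 and 0.23) and MTOAC with AEBDAC (0.33, 0.36 and 0.30). Alternatives were a pseudocount of 0.1, a filter of 5 TPM or none, quantile normalization, rescaling to nuclear genes, a replicate block with or without quantile normalization, only the groups compared, and leaving out each library. Leaving out both vehicle library 1 and MTOAC library 3 was chosen after seeing the data.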

Additional observations from a re-analysis of the deposited data

How the results depend on the processing

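No call turned its direction, but the medians of complexes I and II did under some alternatives. For CPC and the 3 pairs of compounds, 0 members were called under every alternative, and the replicate block changed no member call where the numbers pair the libraries. Elsewhere the rule was not met, which does not show that the libraries are unpaired. The same-number correlations were 0.08, 0.25 and 0.03 for AEBDAC with vehicle, -0.03, 0.35 and -0.19 for MTOAC with vehicle and 0.17, 0.40 and 0.09 for MTOAC with CPC. Of 6 libraries, 4, 2 and 5 correlated best with their own number, against 6 where the rule was met. The comparisons that met it link all 4 groups, so pairing of AEBDAC or MTOAC with vehicle was not settled. There the replicate block called 1 member for AEBDAC, Ndufaf1 (adjusted p = 0.0244, with 0.352 its highest under any alternative), and 3 for MTOAC, Ndufaf1, Sdhd and Cox20 (0.0394, 0.0485 and 0.0361, with highest values under any alternative of 0.442, 0.462 and 0.495). The replicate block with quantile normalization called 2 for AEBDAC, Ndufaf1 and Cox10, and 2 for MTOAC, Cox10 and Ndufaf5. Leaving out a library gave 0 to 1 called members for MTOAC, the 1 being Uqcrc1 without vehicle library 2 (adjusted p = 0.0452, with 0.394 its highest). For AEBDAC and MTOAC the shares of all tested genes called under these alternatives are not given here. For CPC the block raised the number of all tested genes called. These counts of members therefore lack a background and are not read as a result about the members.

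Over 55 named genes, 821 values per comparison, 0, 3 and 6 newly passed the threshold for CPC, AEBDAC and MTOAC, and 12 no longer did, all Taco1 in MTOAC cells.

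The complex I median was 0.074 for CPC and 0.028 for MTOAC with quantile normalization, with or without the replicate block, and 0.025 for MTOAC without both vehicle library 1 and MTOAC library 3. Without both, the complex II medians were 0.046 for CPC and 0.092 for AEBDAC. Leaving out 1 library moved the complex II median between -0.28 and 0.046 for CPC, -0.25 and 0.092 for AEBDAC and -0.29 and 0.065 for MTOAC, and the complex I median for MTOAC between -0.13 and 0.0078. The cause was not tested.

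For assembly factors outside the name rule in MTOAC cells (1 called), 0 were called with no filter, quantile normalization, nuclear rescaling, only the groups compared, without both libraries or without any 1 library (0 to 0), 2 with a filter of 5 TPM and 9 with the replicate block. In AEBDAC cells the replicate block called 4, with quantile normalization 2, and leaving out a library 0 to 1. For regulators, MTOAC had 1 with quantile normalization, nuclear rescaling or the block, 2 with both block and quantile normalization and 0 to 1 leaving out a library, and AEBDAC had 1 with the block and 1 with block and quantile normalization. With the block MTOAC had 1 carrier gene and 1 glycolysis gene called (also 1 with quantile normalization), and leaving out a library gave 0 to 1 for glycolysis and for mitochondrially encoded subunits. The shares of all tested genes called under these alternatives are not given here, so the list counts lack a background too.

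TPM values without depth limit members of a few TPM, such as Uqcrc1 and Cox6a2, most.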
